A study of Mus musculus with 6 samples.

Results

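The imprinted fetal growth genes H19, Meg3, Dlk1, Peg3, Mest, Grb10, Plagl1, Ndn, Sgce and Nnat were followed in embryonic submandibular glands (eSMGs) with and without blockade of the chemokine receptor CXCR4. They were taken from the deposited count tables by gene symbol, and all 10 were found among the 23260 rows used. The glands came from ICR mouse embryos at E14 and were cultured for 6 h with no drug named (control) or in AMD3100, which blocks CXCR4, at 50 µM, with up to 10 glands pooled per tube and 3 tubes per group. No transgene or mutation was named for either group, so the groups differed in AMD3100 alone as far as the labels say. Libraries of 3′ mRNA, in which a read comes from the end of a transcript, held from 9051595 counts in AMD3100 replicate 3 to 14393031 in AMD3100 replicate 1. Levels are counts per 1000000 after TMM scaling (CPM), and a positive log2 fold change means a higher level with AMD3100. All 14 epithelial and all 14 mesenchymal marker genes examined had counts in every library, led by Krt15 and Col3a1. The 2 libraries numbered 3 stood apart from the other 4 for many genes, and the fold changes of the 10 genes are given with and without them below.

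Imprinted genes are transcribed mainly from the allele of one parent, because DNA methylation laid down in the egg or the sperm marks one copy of a control region and is kept through the divisions of the embryo. Many of them act on growth before birth: H19, Meg3 and Grb10 are expressed mainly from the maternal copy in most tissues, and the other members from the paternal copy. Their expression is high in fetal mesenchyme, muscle and neural tissue and is mostly lost after birth. The counts do not separate the alleles, so the values below are totals of both copies.

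The genes lie in clusters or as isolated imprinted loci, given here as RefSeq places them on GRCm38.p6. Mest (chr6:30733506-30748466) and Sgce (chr6:4674350-4747204) share chromosome 6. H19 (chr7:142575530-142578146), Peg3 (chr7:6703892-6730462) and Ndn (chr7:62348277-62349928) lie far from each other on chromosome 7. Dlk1 (chr12:109452485-109463336) and Meg3 (chr12:109540996-109571729) are neighbours on chromosome 12. Plagl1 (chr10:13090832-13131694) and Grb10 (chr11:11930499-12037428) each lie alone in this group, and Nnat (chr2:157560078-157562525) lies wholly inside Blcap.

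Sequence just before the transcription start was searched for a pair of motifs that belong to imprinting. TGCCGC, the letters read by the zinc finger protein ZFP57 that keeps methylation at imprinted control regions, and GGGGCCCC, a palindrome bound by the zinc finger protein that Plagl1 encodes, were searched on both strands in the 250 bases upstream of each start. The RefSeq table held 12 starts of 8 of the genes, and none for H19 or Sgce. TGCCGC was present at 4 of the 12 starts, belonging to Mest, Plagl1 and Meg3, or 33.3%, where 8.68% of all 32851 starts had it. Of these 4, a pair of Mest starts lie 3 bases apart and share nearly all of their sequence. GGGGCCCC was present at 1 of the 12 starts, that of Peg3, or 8.33%, against 0.889% of all starts. The 4 stretches are shown because they hold these letters, in gene direction, with the motif in capitals (GCGGCA is TGCCGC on the other strand). They are Mest at chr6:30737800-30738049 and Plagl1 at chr10:13090582-13090831 and Meg3 at chr12:109540746-109540995, all on the plus strand, and Peg3 at chr7:6730420-6730669 on the minus strand.
Mest: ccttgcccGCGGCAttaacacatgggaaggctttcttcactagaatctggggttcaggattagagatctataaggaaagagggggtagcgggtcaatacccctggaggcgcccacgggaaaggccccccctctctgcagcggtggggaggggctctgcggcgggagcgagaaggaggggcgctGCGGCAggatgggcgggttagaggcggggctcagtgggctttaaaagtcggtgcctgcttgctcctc
Plagl1: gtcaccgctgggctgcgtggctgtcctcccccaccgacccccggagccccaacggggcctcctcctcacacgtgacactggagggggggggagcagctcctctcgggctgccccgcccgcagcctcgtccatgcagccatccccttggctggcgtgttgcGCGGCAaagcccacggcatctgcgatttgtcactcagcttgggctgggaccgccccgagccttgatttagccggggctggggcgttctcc
Meg3: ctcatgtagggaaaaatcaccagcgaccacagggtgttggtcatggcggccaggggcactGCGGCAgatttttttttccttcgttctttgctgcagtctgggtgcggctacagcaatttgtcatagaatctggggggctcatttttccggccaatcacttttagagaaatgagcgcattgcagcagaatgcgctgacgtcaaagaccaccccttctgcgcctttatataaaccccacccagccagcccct
Peg3: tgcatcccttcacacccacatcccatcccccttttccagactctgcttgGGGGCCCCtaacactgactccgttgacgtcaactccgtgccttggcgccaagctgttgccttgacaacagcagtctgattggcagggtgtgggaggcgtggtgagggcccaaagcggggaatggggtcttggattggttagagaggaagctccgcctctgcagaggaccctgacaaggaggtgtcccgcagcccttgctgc
The Peg3 stretch also holds the start of Usp29, an imprinted gene at chr7:6730559-6967220 that is read away from Peg3. The median number of CpG dinucleotides in the 250 bases was 9 over the 12 starts and 6 over all starts, and it ranged among the 12 from 0 at a downstream start of Meg3 to 40 at a start of Grb10. A match of letters is a description and was not tested for binding or methylation.

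Of the 10 genes, 3 also hold microRNA genes: Mir675 lies within H19, Mir335 within Mest (chr6:30741299-30741396), and Mir770 and Mir1906-1 within Meg3. The mature 5p strands of those in H19 and Mest are shown, with the seed (bases 2 to 8, which pair with targets) in capitals. The seeds differ, and the 3′ mRNA libraries do not measure microRNA levels.
mmu-miR-675-5p: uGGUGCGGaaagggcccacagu
mmu-miR-335-5p: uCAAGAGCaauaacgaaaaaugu

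The 10 genes together took between 2.30% (95% Wilson interval 2.29 to 2.31) of the counts in AMD3100 replicate 3 and 4.46% (4.45 to 4.47) in AMD3100 replicate 1. These intervals cover counting error only. Rn45s, the ribosomal RNA precursor, took 32.4%, 27.5% and 20.2% of the counts in control and 16.2%, 32.5% and 22.7% in treated libraries, and plain shares of other genes move with it. H19 alone, a long noncoding RNA, took 2.58%, 2.57% and 0.855% of the counts in control replicates 1, 2 and 3 and 3.14%, 2.47% and 1.02% in the AMD3100-treated ones. Its share was lowest in the libraries numbered 3 of both groups, while in replicate 1, where the shares differed between groups, the scaled levels were 26096 and 26059 CPM. By mean CPM over the 6 libraries, H19 ranked 2 and Dlk1 ranked 3 among all genes. Meg3 ranked 36, Plagl1 112, Peg3 114, Grb10 216, Mest 229, Ndn 639 and Nnat 698. Sgce ranked 8832 and was the least abundant, with 32 to 164 counts per library. Since a transcript gives reads at its 3′ end only, these levels were not divided by length, and a gene whose end is read poorly would rank too low.

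The order of the levels was clear only between some neighbours. H19 stood above Dlk1 in 5 of 6 libraries, with Dlk1 the higher in control replicate 3. Dlk1 stood above Meg3, and Meg3 above Plagl1, in all 6. The order of Plagl1, Peg3, Grb10 and Mest was less settled: Plagl1 was above Peg3 in 3 of 6 libraries and above Grb10 and Mest in 5 each, Peg3 above Grb10 in 4, and Grb10 above Mest in 4. Mest stood above Ndn in all 6, Ndn above Nnat in 4 of 6, and Nnat above Sgce in all 6.

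**Figure D1:**
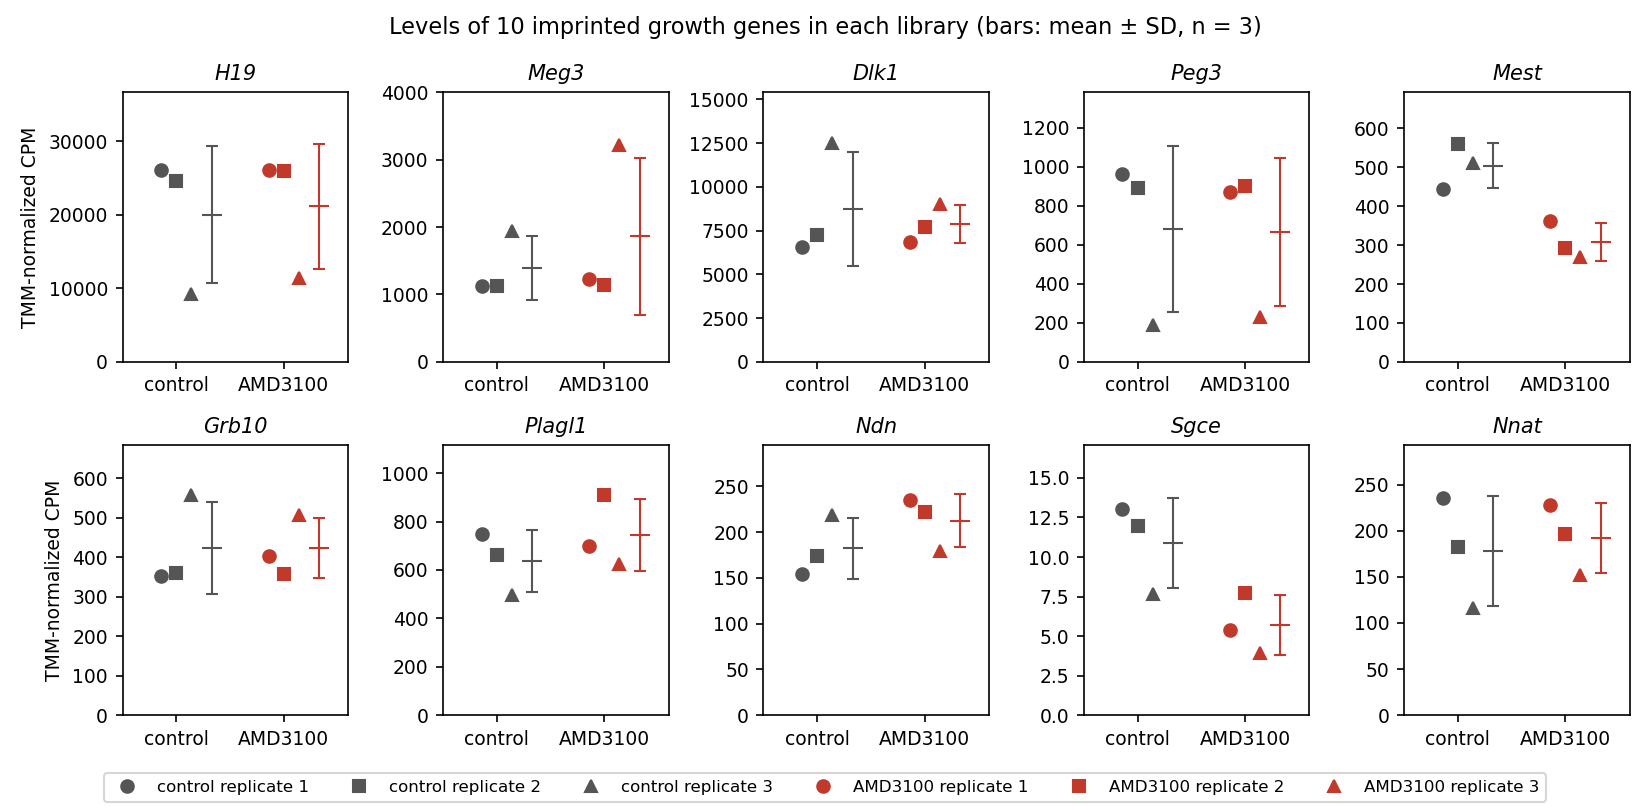
Level of each of the 10 genes in every library (y axis, TMM-normalized CPM, from 0; x axis, group); points are libraries with a shape per replicate number, and bars are mean ± SD, n = 3. Mest is the gene whose 3 AMD3100-treated libraries (268 to 363 CPM) all lie below the 3 controls (443 to 559 CPM), while for H19 and Peg3 both triangles, the libraries numbered 3, lie far below the other points.

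The comparison of AMD3100-treated with control eSMGs asks how blockade of CXCR4 for 6 h moves these transcripts. In edgeR's quasi-likelihood test across 13610 genes with Benjamini-Hochberg adjustment, 0 genes had an adjusted p-value under 0.05 (0% of those tested), and so 0 of the 10. Without adjustment, 228 genes were under 0.05, which is 1.68% of those tested, and 1 of the 10, Mest, was among them. The genes under 0.05 were lower with AMD3100 in 1.28% of those tested and higher in 0.397%. By DESeq2, 5 genes of the whole table had an adjusted p-value under 0.05 and none was a member. Of the 10 genes, 5 had a log2 fold change above 0 and 5 below, with a median of 0.04 (0.02 over all genes tested). The median size of the change, regardless of sign, was 0.19 for the 10 genes and 0.28 for all genes. The libraries of the groups did not overlap for 1 of the 10 genes, Mest, and for 7.44% of all genes tested, 4.17% lower with AMD3100 and 3.28% higher. With replicate number as a block, the 3 genes under an adjusted 0.05 (0.022%) held no member, and Mest was again the only one of the 10 under 0.05 before adjustment, where 6.66% of all genes were.

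Mest, a paternally expressed gene for a membrane protein with a hydrolase fold that is made in fetal mesoderm, had the clearest difference of the 10. Its levels were 443, 559 and 512 CPM in control replicates 1, 2 and 3, and 363, 292 and 268 CPM in the AMD3100-treated ones. Every treated library lay below every control, by the most in replicates 2 and 3, where the treated level was 0.524 and 0.525 of the control, and by less in replicate 1 at 0.819. Control tubes averaged 504 ± 58.1 CPM and treated tubes 308 ± 49.1 CPM (SD, n = 3). The log2 fold change was -0.71 (standard error 0.28, 95% interval -1.34 to -0.08), with an adjusted p of 0.99998 by edgeR. Before adjustment edgeR gave p = 0.0305, and an exact permutation test of the means, two-sided, gave p = 0.1, the smallest that 3 against 3 libraries allow. With replicate number as a block, the log2 fold change was -0.72 and the edgeR adjusted p was 0.246. Over 14 alternative settings the adjusted p ranged from 0.246 to 0.99998. Mest was no longer under 0.05 before adjustment without control replicate 2, without AMD3100 replicate 2 or without AMD3100 replicate 3, with log2 fold changes of -0.63, -0.67 and -0.64.

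The gene next to Mest also had lower levels in the treated libraries, though its counts cannot be told apart from those of Mest. Copg2, which encodes a subunit of the vesicle coat COPI, ends within Mest from the opposite strand, and the 2 genes overlap tail to tail over 913 bases (chr6:30747554-30748466). Copg2 stood at 376, 510.0 and 495 CPM in control replicates 1, 2 and 3 and at 299.5, 224 and 250.1 CPM after AMD3100. Its groups did not overlap either, and Copg2 differed by -0.84 on the log2 scale (standard error 0.28, edgeR adjusted p = 0.99998). The ratio of Copg2 to Mest counts was between 0.767 and 0.968 in the 6 libraries, with means of 0.910 ± 0.0593 in control tubes and 0.842 ± 0.0834 in treated ones (SD, n = 3). An exact permutation test of that ratio, two-sided, gave p = 0.3, where 0.1 is the smallest possible, and in each of the 3 same-numbered pairs the ratio was lower with AMD3100. Both 3′ ends lie in the shared stretch and whether the authors counted by strand is not given in the sources used here. The counts of Mest and Copg2 thus cannot be told apart as separate measurements. Mest and Copg2 had no read, of 11 simulated from the last 300 bases of each, that mapped equally well elsewhere in the genome.

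**Figure D2:**
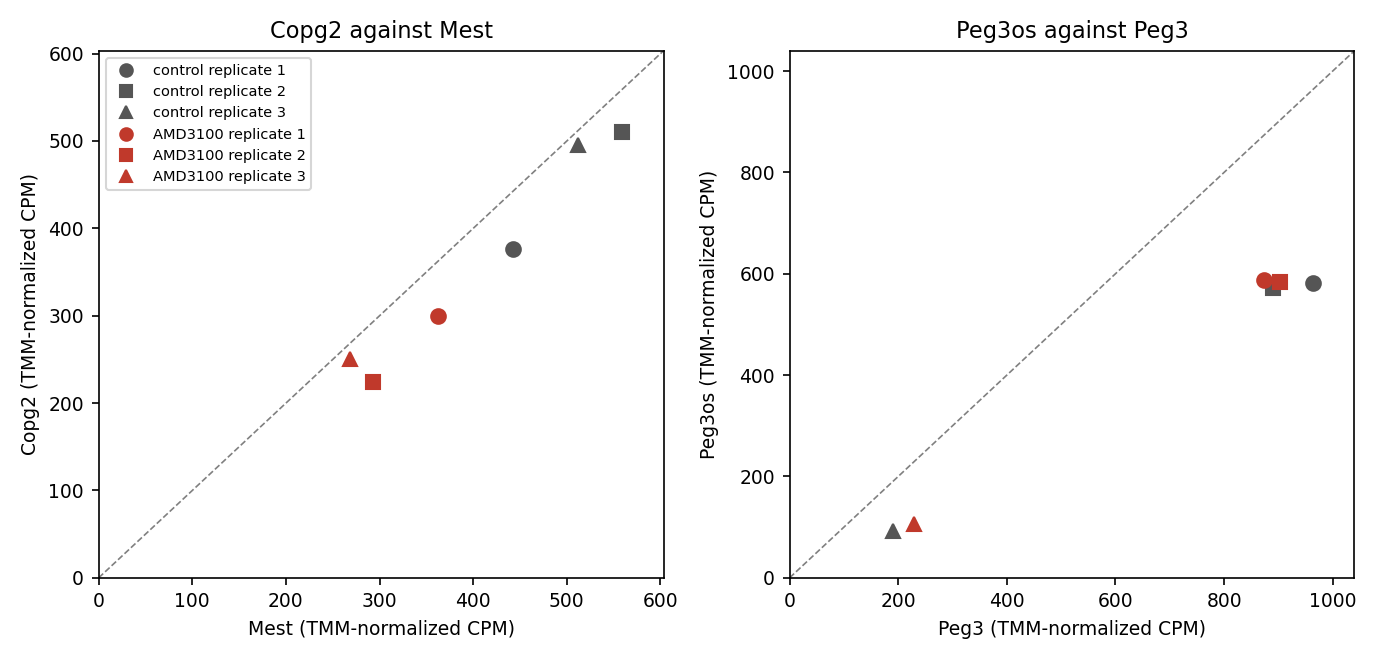
Levels of overlapping gene pairs in the 6 libraries (both axes, TMM-normalized CPM; dashed line, equal levels; each point a library). Copg2 tracks Mest just below the line, with the 3 AMD3100-treated libraries lower on both axes, and Peg3os tracks Peg3, with the 2 libraries numbered 3 near the origin.

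Sgce, which encodes epsilon-sarcoglycan of the dystrophin complex, was also lower in each treated tube than in the control of the same number, at a low level. Its levels were 13.05, 11.9 and 7.68 CPM in control replicates 1, 2 and 3 and 5.41, 7.74 and 3.93 CPM in AMD3100-treated ones. The groups overlapped by 1 library, since AMD3100 replicate 2 was slightly above control replicate 3. The log2 fold change was -0.93 (standard error 0.49, 95% interval -2.04 to 0.18, edgeR adjusted p = 0.99998). Peg10, the retrotransposon-derived imprinted gene that starts beside Sgce (chr6:4747306-4760517), had levels of 215, 188 and 57.7 CPM in control and 157, 159.7 and 62.0 CPM in AMD3100-treated eSMGs. Its log2 fold change was -0.28 (95% interval -1.49 to 0.93). The ratio of Peg10 to Sgce counts varied from 7.52 to 29.1 across libraries, with group means of 13.2 in control and 21.8 in treated tubes (exact permutation test, two-sided, p = 0.2, where 0.1 is the smallest possible). In each of the 3 same-numbered pairs it was higher with AMD3100.

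Meg3, a long noncoding RNA, had the highest log2 fold change of the 10. It stood at 1120.0, 1131 and 1947 CPM in control replicates 1, 2 and 3 and at 1232, 1144 and 3211 CPM in AMD3100-treated ones. The treated tube was above its control in 3 of 3 pairs, but in replicates 1 and 2 by only 1.10 and 1.01 times, and the groups overlapped. The log2 fold change was 0.41 (standard error 0.46, 95% interval -0.63 to 1.45). It rested on AMD3100 replicate 3, without which it was -0.25. Together with Mest and Sgce, Meg3 made 3 of 10 genes with the same direction in all 3 pairs, against 30.2% of all genes tested.

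Dlk1, a transmembrane protein with EGF-like repeats that holds back differentiation of progenitors, lies upstream of Meg3 and is expressed from the other allele. It had 6547, 7243 and 12506 CPM in control replicates 1, 2 and 3 and 6875, 7707 and 9031 CPM after AMD3100. Control replicate 3 was the highest library and the log2 fold change was -0.16 (95% interval -0.91 to 0.60). The ratio of Meg3 to Dlk1 counts was 0.171, 0.156 and 0.156 in control and 0.179 and 0.148 in AMD3100 replicates 1 and 2. AMD3100 replicate 3, at 0.355, was the exception. Rian, the noncoding RNA downstream of Meg3, was at 538, 498 and 1295 CPM in control and 436, 482 and 1698 CPM in treated eSMGs, so that like Meg3 it was highest in both libraries numbered 3.

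The abundant H19 was not measurably different between the groups. Its levels were 26096, 24611 and 9269 CPM in control and 26059, 25906 and 11382 CPM in AMD3100-treated eSMGs. Pairs of the same number lay close together, at 0.999, 1.05 and 1.23 of the control, and replicate 3 was the low library in both groups. The log2 fold change was 0.08 (standard error 0.47, 95% interval -0.98 to 1.14), and it was 0.03 in replicates 1 and 2 only. Igf2, the growth factor gene that shares enhancers with H19, had 2092, 2151 and 1823 CPM in control and 1927, 1882 and 1714 CPM in treated eSMGs, with a log2 fold change of -0.14 (95% interval -0.72 to 0.45). H19 counts were 12.5, 11.4 and 5.08 times those of Igf2 in control and 13.5, 13.8 and 6.64 times in AMD3100-treated eSMGs. The ratio was lowest in both libraries numbered 3, and in each of the 3 pairs it was somewhat higher with AMD3100 (exact permutation test of the unpaired groups, two-sided, p = 0.5, where 0.1 is the smallest possible).

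Peg3, a zinc finger protein gene of the paternal copy, had the widest interval of the 10. It stood at 963, 891 and 191 CPM in control and at 873, 903 and 230.0 CPM after AMD3100, and both libraries numbered 3 were far below the others. The log2 fold change was -0.03 (standard error 0.65, 95% interval -1.51 to 1.45), and with the replicate block it was 0.05. Peg3os, an RNA of the opposite strand that lies inside Peg3 (chr7:6706760-6707624), had 582, 572 and 93.1 CPM in control and 588, 583 and 107 CPM in treated eSMGs. Its counts were 0.465 to 0.674 of those of Peg3. The 3′ end of Peg3 lies outside this stretch, and whether reads of one were counted on the other was not tested. Usp29, across the shared start region, went the other way between replicate numbers, at 53.3, 57.0 and 89.5 CPM in control and 77.7, 75.2 and 111 CPM in treated eSMGs. Usp29 was higher with AMD3100 in 3 of 3 pairs (log2 fold change 0.40, 95% interval -0.33 to 1.14), and with the replicate block it was under 0.05 before adjustment (edgeR adjusted p = 0.703).

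Grb10, an adaptor that restrains signalling by the insulin and IGF1 receptors, had 354, 359.8 and 558 CPM in control and 404, 358 and 506 CPM in AMD3100-treated eSMGs. Its mean was 424 ± 116 CPM in control and 423 ± 75.8 CPM in treated eSMGs, and the 95% interval of its log2 fold change ran from -0.70 to 0.70. Plagl1, a zinc finger transcription factor gene, had 749, 663 and 499 CPM in control and 699, 909 and 623 CPM after AMD3100. Plagl1 was higher in treated eSMGs in 2 of 3 pairs, with a log2 fold change of 0.22 (95% interval -0.45 to 0.90). For Plagl1, 3 of 11 simulated reads (27.3%) from its 3′ end also mapped elsewhere, so its level is less certain.

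Ndn encodes necdin, a MAGE family protein of postmitotic neurons, muscle and fat precursors. It was at 154, 174 and 219 CPM in control replicates 1, 2 and 3 and at 235, 222 and 179.7 CPM in AMD3100-treated ones. Replicates 1 and 2 had higher Ndn with AMD3100, by 1.53 and 1.28 times, and replicate 3 had lower, at 0.819 of the control. The log2 fold change was 0.22 (standard error 0.28, 95% interval -0.42 to 0.86). In replicates 1 and 2 only it was 0.47, under 0.05 before adjustment (edgeR adjusted p = 0.767), as 798 of 13948 genes tested were. The value for Ndn thus depended on the libraries numbered 3. Nnat, a small membrane proteolipid of the endoplasmic reticulum, had 235, 183 and 116 CPM in control and 228, 196 and 152 CPM in treated eSMGs. Its log2 fold change was 0.11 (95% interval -0.66 to 0.88). Blcap, the gene around it, was at 41.8 to 73.5 CPM and had a log2 fold change of -0.22. An exon of another gene on the opposite strand lies over the 3′ end of Nnat, and likewise of Meg3, and whether antisense reads entered their counts was not tested.

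**Figure D3:**
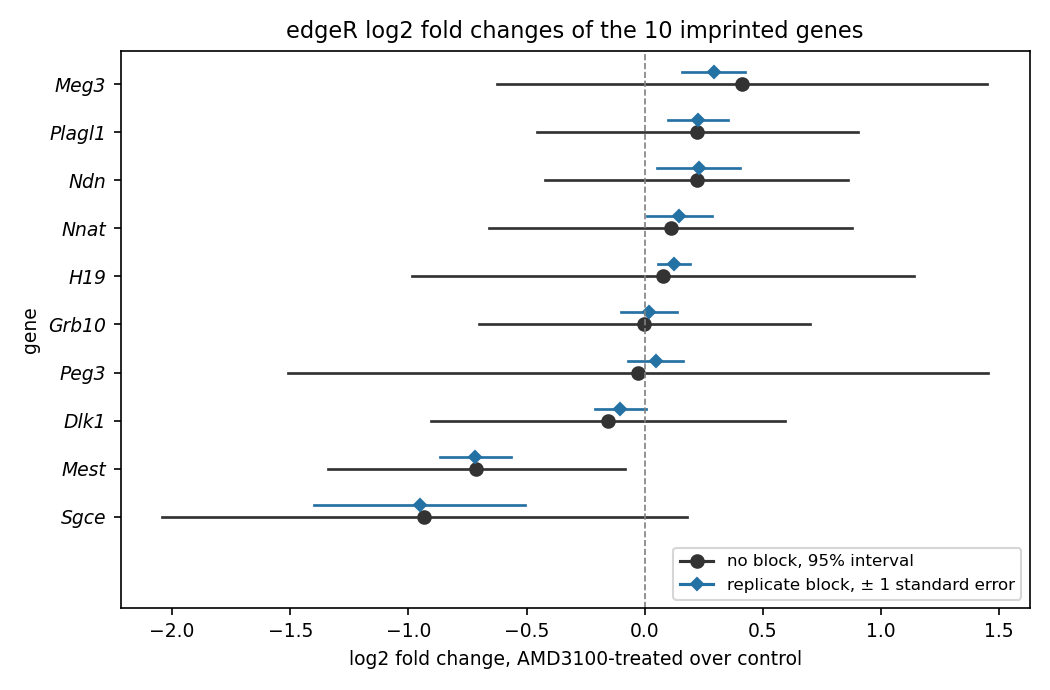
Log2 fold change of AMD3100-treated over control eSMGs for the 10 genes (x axis) by edgeR, without (circles, 95% interval) and with (diamonds, ± 1 standard error) replicate number as a block. Of the 95% intervals without the block, that of Mest (-1.34 to -0.08) is the only one that does not reach 0. The bars with the block show 1 standard error and are not 95% intervals.

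For most of these genes the libraries parted by replicate number. Both libraries numbered 3 lay outside the range of the other 4 for 7 of the 10 genes, where 44.2% of all genes tested did so. H19, Peg3, Plagl1 and Nnat were below (4 of 10, against 21.1% of all genes), and Meg3, Dlk1 and Grb10 above (3 of 10, against 23.1%). Only Mest, Ndn and Sgce had overlapping values. The mean of the replicate 3 libraries over the mean of the other 4 was 0.232 for Peg3, 0.402 for H19, 0.638 for Nnat and 0.743 for Plagl1. It was 2.23 for Meg3, 1.52 for Dlk1 and 1.44 for Grb10, and 0.609 for Sgce, 0.942 for Mest and 1.02 for Ndn. The median size of this log2 ratio was 0.63 over the 10 genes and 0.66 over all genes tested, so the size of the shift in the 10 genes was close to that in the whole table. In replicates 1 and 2 only, the log2 fold changes with AMD3100 were 0.072 for Meg3, 0.074 for Dlk1, -0.068 for Peg3, 0.091 for Grb10, 0.18 for Plagl1, -0.62 for Mest, -0.93 for Sgce and 0.017 for Nnat. Sgce thus had the same value without the libraries numbered 3, and Dlk1 and Grb10 changed sign.

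**Figure D4:**
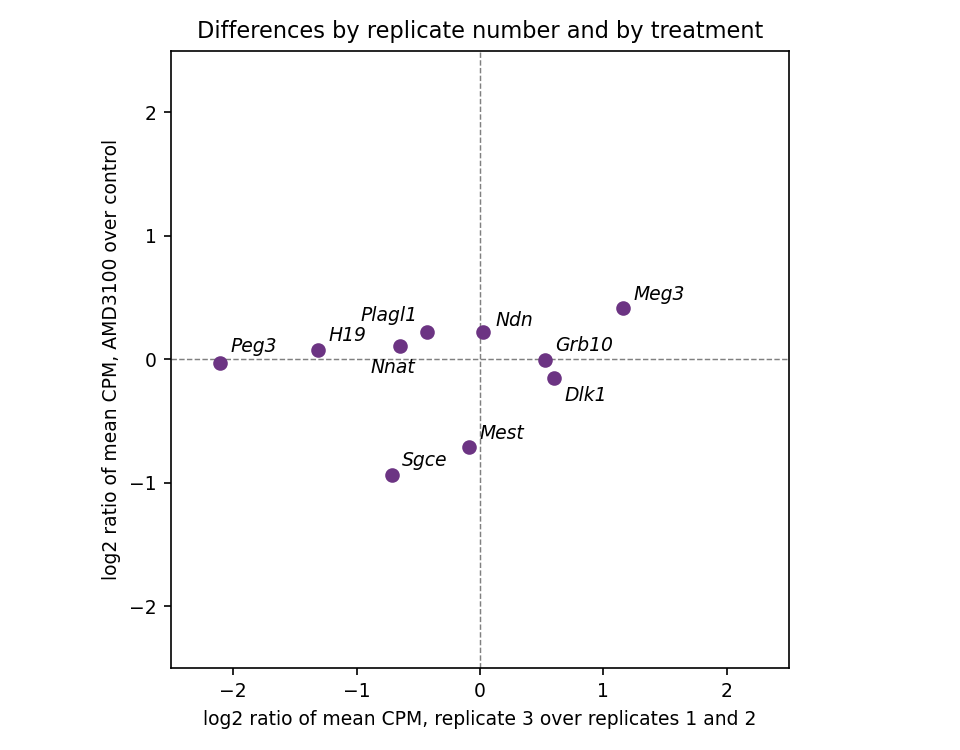
For each of the 10 genes, the log2 ratio of mean CPM in replicate 3 over replicates 1 and 2 (x axis) and in AMD3100-treated over control libraries (y axis), on equal scales. Peg3 and H19 lie far left near the horizontal line, Meg3 lies right and highest, Sgce lies lowest and left, and Mest lies below 0 close to the vertical line.

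Markers of several cell types moved with the same libraries. The summed level of 14 skeletal muscle genes was 361, 383 and 1899 CPM in control and 253, 207 and 2549 CPM in AMD3100-treated eSMGs, or 7.39 times higher in the libraries numbered 3. Its most abundant gene was Myog, the myogenic transcription factor, at 41.1, 40.0 and 521 CPM in control and 13.9, 9.95 and 485 CPM in treated eSMGs, while Myod1 and Myf5 were at 0 in at least 1 library. The summed level of 14 mesenchymal genes went the other way, with 4674, 4624 and 2410.2 CPM in control and 4655, 4625 and 2047 CPM in treated eSMGs, led by Col3a1. Of the 14 mesenchymal genes, 5 lay below the other 4 libraries in both libraries numbered 3 and 1 above, with a median log2 ratio of -0.38, so the summed fall was uneven over the list. Of 13 muscle genes tested, 11 lay above and 0 below. Dlk1, Meg3 and Grb10 were high, and H19 and Peg3 low, in these libraries with more muscle signal. In whole glands, fewer cells of a type and less RNA per cell cannot be told apart. The part of tissue makeup in the values of the 10 genes was not tested. Within replicates 1 and 2 the muscle sum was lower in the treated tube of each pair, as Mest was. Just 2 of the 13 muscle genes tested had the same direction in all 3 pairs, against 30.2% of all genes. Both were lower with AMD3100: Myog (0.338, 0.249 and 0.932 of the control) and Myod1, which had 0 counts in AMD3100 replicate 2. With the replicate block their edgeR adjusted p was 0.468 and 0.722. In replicate 3 the muscle sum was higher in the treated tube (2549 against 1899 CPM) and Mest lower (268 against 512 CPM). Of the 13 muscle genes tested, 9 had a log2 fold change above 0 and 4 below. Of the 14 mesenchymal genes, 4 were above 0 and 10 below. Osr1, Vim, Twist1 and Pdgfra were lower in all 3 pairs (4 of 14 with one direction, against 30.2% of all genes). Only Osr1 had groups that did not overlap (7.44% of all genes), at 184, 172 and 170 CPM in control and 148, 140 and 161 CPM in treated eSMGs.

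Sums of other marker lists follow. Gland epithelium (14 genes, led by Krt15) summed to 2339.7, 2338 and 1515 CPM in control and 2765, 2418 and 3514 CPM in treated eSMGs. Krt15 itself, at 888 and 2472 CPM in control and AMD3100 replicate 3, carried much of these sums. The sum was higher in the treated tube of each pair, where Mest was lower. With AMD3100, 8 of the 14 genes had a log2 fold change above 0 and 6 below. The groups did not overlap for 1 of them, Cdh1, which was higher (7.44% of all genes did not). Of the 14 epithelial genes, 9 lay below the other 4 libraries in both libraries numbered 3 and 0 above, as H19 and Peg3 did, with a median log2 ratio of -0.95. Parasympathetic neurons (14 genes, led by Prph) summed to between 1048 and 1864 CPM, with Th and Chat at 0 in at least 1 library. Endothelium (10 genes, led by Egfl7) summed to between 63.2 and 174 CPM, with Cdh5, Tek, Tie1 and Flt1 at 0 in at least 1 library. Cartilage and bone genes (10, led by Col9a1) were at 36.3 to 112 CPM and lowest in both libraries numbered 3, with Matn1, Sp7, Ibsp and Bglap at 0 in at least 1. Fat progenitor genes (8, led by Lpl) were at 121 to 251 CPM and highest in both libraries numbered 3, with Adipoq at 0 in every library and Pparg, Plin1 and Cd36 in at least 1. Their part in the values of the 10 genes was not tested.

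Over the 6 libraries 7 of the 10 genes formed opposed patterns. They were the 7 with both libraries numbered 3 outside the other 4, as 44.2% of all genes tested were (21.1% below and 23.1% above). Pearson's r of log2 CPM was 0.997 between H19 and Peg3, 0.928 between H19 and Nnat and 0.893 between Dlk1 and Grb10. It was -0.973 between Peg3 and Grb10, -0.970 between Dlk1 and Nnat and -0.927 between H19 and Dlk1. Mest was most like Sgce (r = 0.730), and Meg3 and Dlk1, neighbours in 1 domain, had an r of 0.651. These values describe 6 libraries that differ in depth and share replicate numbers in pairs, and they were not computed without the libraries numbered 3, since 4 libraries are too few. The genes of the whole table most like the mean profile of the 10 were Abhd16a (r = 0.999), Tinagl1, Eps8, Mrps27 and Samd10 (r = 0.996). All 5 were low in both libraries numbered 3, Tinagl1 for example at 147, 155 and 24.5 CPM in control and 109, 112 and 13.3 CPM in treated eSMGs.

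**Figure D5:**
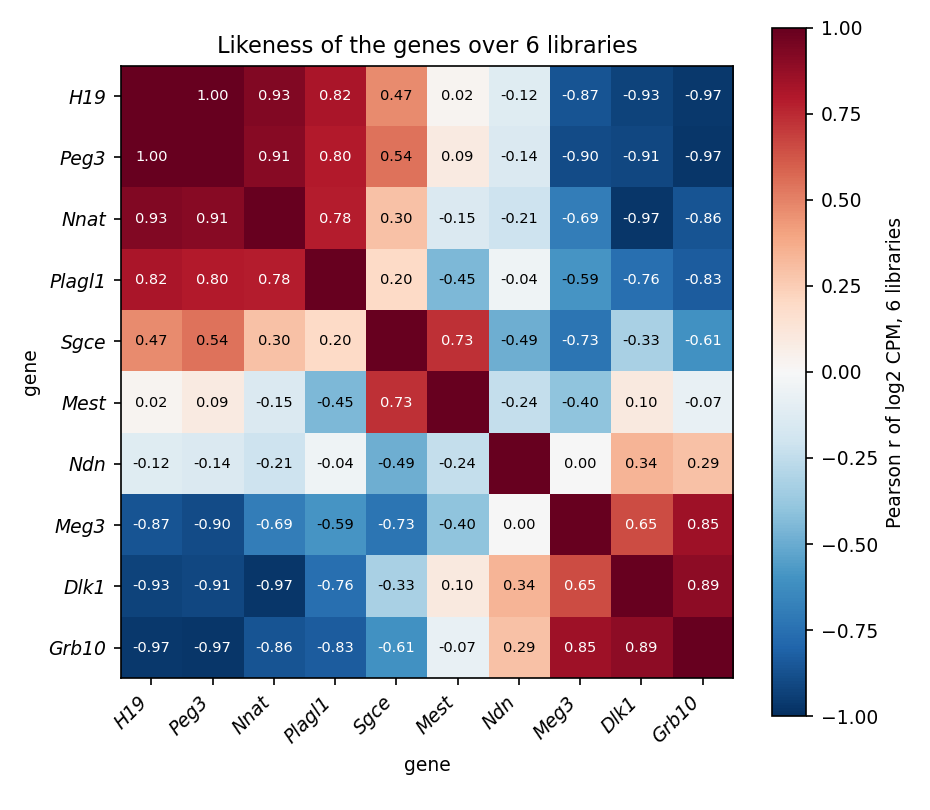
Pearson's r of log2 CPM over the 6 libraries for each pair of the 10 genes (colour scale from -1 to 1, values printed). H19, Peg3, Nnat and Plagl1 form a block of positive values opposed to Meg3, Dlk1 and Grb10, and Mest and Ndn belong to neither. The genes of both blocks are those with both libraries numbered 3 outside the other 4, as 44.2% of all genes tested were.

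Of 70 other imprinted genes listed, 68 had a row and 51 passed the filter on low counts. Among these 51, 27 had a log2 fold change above 0 and 24 below, with a median of 0.04 and a range from -1.50 to 1.39. By edgeR without adjustment 2 of the 51 had p under 0.05, Copg2 (lower) and Mkrn3 (higher), against 1.68% of all genes, and 0 after adjustment. The counts of Copg2 cannot be told apart from those of Mest, so here and below Copg2 is not a measurement separate from Mest. Snrpn and Snurf, both among the 51, likewise had equal or nearly equal counts in every library. Copg2 was not under 0.05 without control replicate 2 or AMD3100 replicate 2, and Mkrn3 without control replicate 1 or 2 or AMD3100 replicate 2 or 3. The groups did not overlap for 3 of the 51 (Copg2, Mkrn3 and Slc22a18, the last named after its values were seen), against 7.44% of all genes. Slc22a18 had only 12, 8 and 11 counts in control replicates 1, 2 and 3 and 27, 49 and 9 in AMD3100-treated ones, which overlap. Its groups were apart only after scaling, at 1.097 CPM in control replicate 3 and 1.105 CPM in AMD3100 replicate 3 (log2 fold change 1.39, standard error 1.15). The direction was the same in all 3 pairs for 20 of the 51, against 30.2%. With the replicate block 7 of the 51 were under 0.05 without adjustment, where 6.66% of all genes were. Mkrn3, a ring finger gene in the same cluster as Ndn (chr7:62417593-62420153), had 5.17, 3.64 and 8.38 CPM in control and 11.3, 15.0 and 14.0 CPM in AMD3100-treated eSMGs. Its groups did not overlap, and Mkrn3 differed by 1.23 on the log2 scale (standard error 0.47, edgeR adjusted p = 0.99998). Ndn, in this cluster, did not show the same change in replicate 3.

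Cdkn1c, Gnas and Igf2r were, like H19, lower in both libraries numbered 3 than in the other 4. Cdkn1c, an inhibitor of the cell cycle, had 4722, 5073 and 2368 CPM in control and 5179, 5397 and 1934 CPM in treated eSMGs, with a log2 fold change of 0.04 (95% interval -0.99 to 1.07). Gnas, the gene of a G protein alpha subunit, had 1582, 1438 and 468 CPM in control and 1505, 1451 and 420.4 CPM in treated eSMGs (log2 fold change -0.05). Igf2r, the receptor that clears IGF2, had 115, 136 and 49.8 CPM in control and 85.6, 86.6 and 36.7 CPM in treated eSMGs. It was lower in treated eSMGs in 3 of 3 pairs, with a log2 fold change of -0.53 (95% interval -1.57 to 0.52), and with the replicate block its edgeR adjusted p was 0.578. Both libraries numbered 3 lay outside the other 4 for 30 of the 51 genes, 17 below and 13 above, where 44.2% of all genes did so, 21.1% below and 23.1% above. In replicates 1 and 2 only, the log2 fold changes were 0.105 for Cdkn1c, -0.036 for Gnas and -0.55 for Igf2r, and they were -0.76 for Copg2 and 1.57 for Mkrn3.

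Factors that maintain or read imprints, 24 listed and 21 tested, showed no edgeR p under 0.05 without adjustment, and 2 with the replicate block. Of the 21, 9 had a log2 fold change above 0 and 12 below, with a median of -0.06. The groups did not overlap for 5 of the 21, where 7.44% of all genes did not: Dnmt3b and Tet2 were lower and Mbd3, Arid4a and Arid4b higher with AMD3100, genes named here after their values were seen. The direction was the same in all 3 pairs for 11 of the 21, against 30.2% of all genes. Dnmt1, the maintenance DNA methyltransferase, had 55.6, 62.8 and 67.4 CPM in control and 57.4, 94.6 and 75.2 CPM in treated eSMGs (log2 fold change 0.29, 95% interval -0.37 to 0.95). Trim28, the corepressor that ZFP57 recruits, had 442, 434 and 126 CPM in control and 435, 455 and 146 CPM in treated eSMGs (log2 fold change 0.05, and 0.015 in replicates 1 and 2 only). Zfp57 itself was at 1.11 to 5.52 CPM, and its log2 fold change of -0.47 had a 95% interval from -2.44 to 1.51.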

How the data were processed

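Libraries of 3′ mRNA from 3 control and 3 AMD3100-treated tubes were grouped by their labels, and nothing says whether the tubes were separate litters. The paper's statistics section describes its results as from 3 independent experiments, without naming the tubes sequenced. The p-values measure the spread between tubes, which may be technical. The authors deposited raw counts of reads per gene symbol, from 50 bp single reads. The submitters' processing notes name Bowtie2, edgeR and mm10; the counting tool, annotation and use of strand are not given in the sources used here. Of 23282 lines, 22 identical repeats of a symbol were left out. Library totals were 11532946, 13127539 and 10869528 in control and 14393031, 11358828 and 9051595 in AMD3100-treated eSMGs, in which 3 counts, the floor, stand for 0.173 to 0.368 CPM, and intervals and floors cover counting error only. No pair of libraries within a group agreed within counting noise (chi-square per degree of freedom 32.9 to 154).

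The genes were compared with edgeR 4.0.16 in R 4.3.3 (TMM, filterByExpr, glmQLFit, glmQLFTest, Benjamini-Hochberg), with group as the only term, because counts were deposited; the paper's methods name quantile normalization and an equal-variance test. The scripts were tested on simulated data. Alternatives were DESeq2 1.42.0, upper quartile scaling, no filter, a minimum of 10 counts per library, a block for replicate number, robust fitting, Rn45s left out, replicates 1 and 2 only, and each library left out. The pairing comes from replicate numbers shared by the labels of both groups: deviations of same-numbered libraries correlated with r = 0.185, 0.171 and 0.584 over genes, while crossed libraries of replicates 1 and 2 gave 0.198 and 0.146, so that those numbers were not matched more closely than when crossed.

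All 10 genes were named; of the other imprinted genes Igf2, Igf2r, Cdkn1c, those with an unadjusted p under 0.05 and the 3 with the highest mean CPM; of the factors Dnmt1, Trim28, Zfp57 and any with an unadjusted p under 0.05; the 5 genes most like the mean profile; and the leading and absent markers of each cell type. The result of 1 marker list is not reported here. Neighbours in a domain (Rian, Peg3os, Usp29, Peg10, Blcap) were chosen after their values were seen. The members and lists were chosen with earlier results of these data known. Positions and sequences are RefSeq's on GRCm38.p6, and 3′ ends were read from GENCODE vM1 on NCBIM37 with minimap2 2.31-r1302 (11 reads of 50 bases per gene).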

Additional observations from a re-analysis of the deposited data

How the results depend on the processing

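No member passed an adjusted 0.05 under any of 14 alternatives. DESeq2 gave 5 genes of the whole table under an adjusted 0.05 (Ccdc53, Ccl11, Txnip, Pmpcb and Smim14, named after their values were seen) and 1 imprint factor without adjustment, Dnmt3b. At least 10 counts in every library also gave 1 factor, Dnmt3b. The replicate block gave 3 genes with adjustment (Txnip, Snrnp70 and Mt2), and without it 907 genes, 7 other imprinted genes and 2 factors (Arid4b and Eed), and turned the log2 fold changes of Peg3 to 0.047 and of Grb10 to 0.016. It changed no other call on the 10 genes. With replicates 1 and 2 only, a fit of 2 against 2 libraries, 798 of the 13948 genes tested had an unadjusted p under 0.05. Among them were 2 of the 10 members (Mest and Ndn) and 6 other imprinted genes. Ndn was at 0.47, and Dlk1 turned to 0.074 and Grb10 to 0.091. Without a filter Grb10 turned to 0.0013. The cause was not tested.

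Leaving out each library in turn gave 163 to 547 genes (547 without control replicate 3 and 451 without AMD3100 replicate 3), 0 to 1 members, 1 to 2 other imprinted genes and 0 to 1 factors with an unadjusted p under 0.05. The imprinted genes were not always Copg2 and Mkrn3: Commd1, Zdbf2 or Tnfrsf23 were under 0.05 in some of these. Log2 fold changes then ranged from -0.26 to 0.37 for H19, -0.25 to 0.74 for Meg3, -0.33 to 0.20 for Dlk1, -0.47 to 0.37 for Peg3, -0.17 to 0.25 for Grb10 and -0.12 to 0.36 for Nnat, so their direction is not settled. They kept their sign for Mest (-0.85 to -0.63), Sgce (-1.21 to -0.74), Plagl1 (0.06 to 0.35) and Ndn (0.10 to 0.38). A gene at the level of Sgce rests on 32 to 164 counts per library.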

Other observations

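The following genes were picked after their values were seen. Commd1, an imprinted gene listed beside the 10, had the lowest log2 fold change of the 51 other imprinted genes tested, at -1.500 (standard error 0.67, edgeR adjusted p = 0.99998). Its levels were 13.8, 17.0 and 74.9 CPM in control replicates 1, 2 and 3 and 6.91, 16.0 and 14.5 CPM in AMD3100-treated ones, so that control replicate 3 stood far above the other 5 libraries. Dnmt3b, a de novo DNA methyltransferase gene, had 15.8, 4.95 and 6.78 CPM in control and 4.32, 2.49 and 3.81 CPM in AMD3100-treated eSMGs, and its groups did not overlap. Its log2 fold change was -1.37 (95% interval -2.79 to 0.06, edgeR adjusted p = 0.99998). Fabp4, a fatty acid carrier of fat and capillary cells, had 13.2, 23.5 and 55.6 CPM in control and 7.83, 12.0 and 12.5 CPM in treated eSMGs (log2 fold change -1.52, edgeR adjusted p = 0.99998). Magel2, which lies between Ndn and Mkrn3, had 2.89, 6.12 and 10.9 CPM in control and 1.498, 2.40 and 5.16 CPM in treated eSMGs, lower in 3 of 3 pairs where Mkrn3 was higher in 3 of 3 (log2 fold change -1.14, 95% interval -2.90 to 0.61).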
